A study of Mus musculus with 12 samples.

Results

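The chaperone genes described here are the 83 rows of the count table whose symbols begin with Hspa, Hspb, Hspd, Hspe, Hsph, Hsp90, Dnaja, Dnajb, Dnajc or Cct and a number, out of 35013 genes in all. They were chosen by symbol, and symbols ending in -ps and a number (13 pseudogenes) were left out, while Dnaja1-ps, Dnajb6-ps and Dnajc19-ps, with no number after -ps, stayed in and had too few counts to test. By class they were 3 HSP90 genes, 1 HSP110 gene, 13 HSPA genes, the HSPD1 and HSPE1 genes (2), 8 small heat shock protein genes, 5 DNAJA, 14 DNAJB, 29 DNAJC and 8 CCT genes. Of the 83, 77 had a count in at least 1 library and 64 had enough counts to be tested.

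Poly-A RNA was sequenced from KP1 cells, a mouse line labelled as lung adenocarcinoma (LUAD), which carried either an overexpressed NRF2 or an empty vector (EV). Each line was treated for 16 h with romidepsin at 5 nM, an inhibitor of class I histone deacetylases, or with DMSO, its solvent. The groups were NRF2 cells with romidepsin, EV cells with romidepsin, NRF2 cells with DMSO and EV cells with DMSO, with 3 libraries in each (n = 3 throughout). The study calls them biological replicates without saying whether they came from separate cultures, so p-values measure the spread between these libraries, which may be technical. There is 1 cell line, and which promoter drove NRF2 is not given in the sources used here.

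Chaperones bind proteins that are unfolded or not yet folded. HSPA (HSP70) proteins hold short stretches of a chain and let go in a cycle driven by ATP, DNAJ (HSP40) proteins bring them their clients and start that cycle, and HSP110 proteins reset it by exchanging the nucleotide. HSP90 acts later, on kinases, receptors and other nearly folded clients, small heat shock proteins hold unfolded proteins without ATP, HSPD1 with its lid HSPE1 folds proteins inside mitochondria, and the CCT ring folds actin and tubulin in the cytosol. Heat shock factor 1 switches on the inducible members through heat shock elements, and ATF6 and XBP1 switch on those of the endoplasmic reticulum (ER) through ER stress elements. In tumours, chaperones are known for sustaining mutated and overproduced proteins, and NRF2 for driving antioxidant genes.

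Libraries held 16842824 to 28003010 estimated counts, and chaperone genes took 2.07 to 2.36% of them. Levels are in CPM (a gene's counts over the library's total, on the usual scale) after scaling by trimmed mean of M values (TMM), and levels of different genes are compared per kilobase of transcript. Nfe2l2, which encodes NRF2, stood at 349 ± 13.8 CPM in NRF2 cells against 96.3 ± 2.9 CPM in EV cells with romidepsin, and at 305 ± 40.7 against 102 ± 1.37 CPM with DMSO (mean ± SD). Of the 8 epithelial and lung adenocarcinoma markers, Krt8, Krt18, Krt19 and Cdh1 were abundant, Nkx2-1, Sftpc and Napsa were at or near 0 in all groups, and Epcam stood at 7.23 and 3.59 CPM with romidepsin, against 0.0657 and 0.0307 CPM with DMSO. The 9 markers of fibroblasts, leukocytes and endothelium, Vim left out, summed to 81.2 to 86.5 CPM in NRF2 and 60.6 to 67.0 CPM in EV libraries with romidepsin, against 8.97 to 10.1 and 10.1 to 14.5 CPM with DMSO. Of these, Cd68 and Col1a1 rose in both lines and Pecam1 in NRF2 cells. Most of the sum was Cd68, at 68.4 and 49.6 CPM in NRF2 and EV cells with romidepsin, against 4.03 and 3.27 CPM with DMSO. Ptprc was called higher in both lines at 0.273 and 0.549 CPM with romidepsin, and its NRF2 groups overlapped. Col1a2, Pdgfrb, Cd3e and Cdh5, also at or near 0, were not tested. Vim rose in both lines too. The part of such cells in the results was not tested, and in bulk RNA fewer cells of a kind and less RNA per cell cannot be told apart. The library of NRF2 cells with DMSO that is numbered replicate 3 stood apart from its replicates, with 7.3% of counts from mitochondrial genes against 4.84 to 6.35% in the other libraries, and several results that depend on it are given with and without it.

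Romidepsin changed most chaperone genes, as it did most genes, in both directions. In NRF2 cells 21 of the 64 tested chaperone genes were higher and 32 lower with romidepsin than with DMSO (edgeR quasi-likelihood test, adjusted p under 0.05 over all 13502 genes tested), which is 82.8% called. The share called over all genes was 79.8%, with 40.5% higher and 39.3% lower. In EV cells 20 were higher and 29 lower, or 76.6% called, against 76.5% over all genes (39.1% higher and 37.4% lower). The median log2 fold change of the 64 was -0.11 in NRF2 cells and -0.08 in EV cells, against 0.01 over all genes in each line. The number called was thus near that of the genome. Of the genes called in both lines, 20 were higher in both, which is 95.2% of the 21 in NRF2 cells and all 20 in EV cells. Another 27 were lower in both (84.4% of the 32 and 93.1% of the 29), and 0 went in opposite directions. The same overlap was not counted over all genes, so it is not shown to be particular to chaperones. Scaling moved the balance. The median of all genes lay higher by 0.109 (NRF2) and 0.111 (EV) on the log2 scale with upper-quartile factors, and by 0.14 and 0.121 with library size alone. With these, 24 chaperones were higher and 25 lower, and 24 and 24, in NRF2 cells, and 27 and 22, and 28 and 21, in EV cells. Over all 13502 genes, 6080 were higher and 4729 lower, and 6256 and 4561, in NRF2 cells. In EV cells the counts over all genes were 5990 and 4392, and 6051 and 4332. With library size alone the median of the 64 was 0.03 in NRF2 and 0.04 in EV cells, against 0.15 and 0.13 over all genes.

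**Figure D1:**
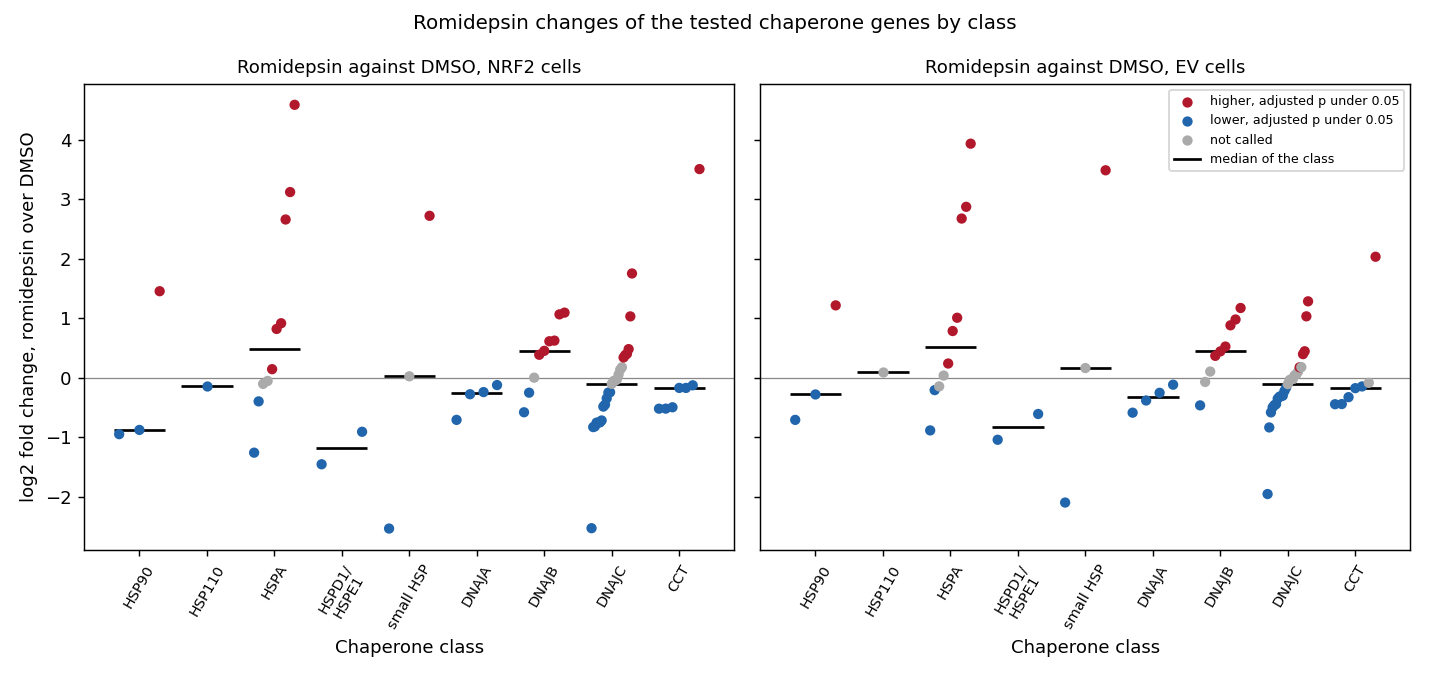
Log2 fold change of romidepsin over DMSO for each tested chaperone gene by class, in NRF2 cells (left) and EV cells (right); each point is a gene, coloured by its call, and the bar is the class median. The HSPA and DNAJB medians lie above 0 in both lines, while the HSP90, HSPD1/HSPE1, DNAJA, CCT and DNAJC medians lie below it. With library size alone as the scaling, the DNAJC median is 0.04 in NRF2 and 0.01 in EV cells, against 0.15 and 0.13 over all genes.

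The cytosolic HSP90 genes moved in opposite directions. Hsp90aa1 (chromosome 12, 110690605 to 110702728, minus strand, GRCm38) encodes the stress-inducible HSP90 alpha, and Hsp90ab1 (chromosome 17, 45567775 to 45573271, minus strand) the constitutive HSP90 beta. Hsp90aa1 was read at 4582, 4391 and 4450.4 CPM in the NRF2 romidepsin libraries, against 1509.5, 1581 and 1810 CPM with DMSO. The EV libraries gave 2965, 2991 and 2953 CPM with romidepsin and 1269, 1258 and 1308 CPM with DMSO. Every romidepsin library was thus above every DMSO library, and the NRF2 libraries were above the EV libraries of the same treatment. The rise was 2.74-fold in NRF2 cells (log2 1.45 ± 0.06, SE, adjusted p = 1.6e-13) and 2.32-fold in EV cells (log2 1.22 ± 0.06, adjusted p = 2.5e-12).

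Hsp90ab1 showed the reverse. It had 3319, 3325 and 3302 CPM in NRF2 cells with romidepsin, against 6049, 6069.8 and 7070.4 CPM with DMSO. EV cells had 3990, 3966 and 3902 CPM with romidepsin and 6296, 6491 and 6576 CPM with DMSO. All 6 romidepsin libraries lay below all 6 DMSO libraries, and the fall was 1.93-fold in NRF2 cells (log2 -0.95 ± 0.06, adjusted p = 3.3e-11) and 1.63-fold in EV cells (log2 -0.71 ± 0.06, adjusted p = 2.4e-09). The ratio of Hsp90aa1 to Hsp90ab1 counts was 1.38, 1.32 and 1.35 in the NRF2 romidepsin libraries and 0.743, 0.754 and 0.757 in the EV romidepsin libraries, against 0.25, 0.26 and 0.256 in NRF2 and 0.202, 0.194 and 0.199 in EV libraries with DMSO. Per kilobase of transcript, Hsp90aa1 exceeded Hsp90ab1 in NRF2 cells with romidepsin (1459 against 1316 CPM per kilobase), and in the other 3 groups Hsp90ab1 was the more abundant. The sum of both genes differed far less, at 7789.7 ± 97.9 CPM in NRF2 cells with romidepsin, 6922 ± 58.5 in EV cells with romidepsin, 8029.8 ± 738 in NRF2 cells with DMSO and 7733 ± 160.2 in EV cells with DMSO. The coding sequences are 75.4% identical.

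**Figure D2:**
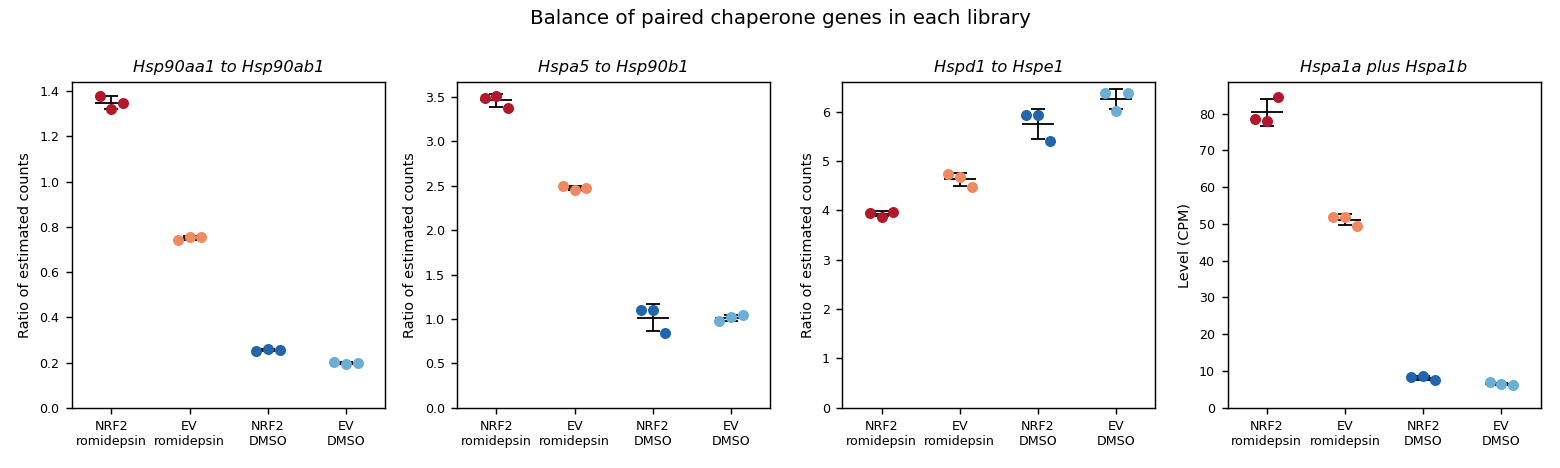
Ratio of estimated counts for Hsp90aa1 to Hsp90ab1, Hspa5 to Hsp90b1 and Hspd1 to Hspe1, and the summed level of Hspa1a and Hspa1b (CPM), in each library; points are libraries, the bar is the mean and the whiskers the SD. The first ratio averages 1.35 in NRF2 cells and 0.751 in EV cells with romidepsin, against 0.255 and 0.198 with DMSO, and no romidepsin library overlaps a DMSO library in any panel.

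The inducible HSPA genes rose steeply. Hspa1a (chromosome 17, 34969190 to 34972156, minus strand) and Hspa1b (chromosome 17, 34956436 to 34959238, minus strand) are neighbours and encode the heat-inducible HSP70. Their coding sequences are 99.4% identical, so the split of reads between them is uncertain, and their sum is the firmer value. It came to 78.5, 78 and 84.6 CPM in NRF2 cells with romidepsin, against 8.31, 8.6 and 7.64 CPM with DMSO, and to 51.9, 52 and 49.4 CPM in EV cells with romidepsin, against 6.89, 6.4 and 6.33 CPM with DMSO. The ratio of group means was 9.82 in NRF2 and 7.82 in EV cells. Tested singly, Hspa1b rose 8.7-fold in NRF2 cells (log2 3.12 ± 0.07, adjusted p = 8.9e-17) and 7.32-fold in EV cells (log2 2.87 ± 0.07, adjusted p = 8.2e-16). Hspa1a rose by 4.59 ± 0.29 and 3.93 ± 0.34 on the log2 scale in NRF2 and EV cells, where the DMSO groups held 35 and 25 counts over their libraries. In NRF2 cells that value was 4.12 without the DMSO library that stood apart, in which Hspa1a had 0 counts, and 5.21 without NRF2 DMSO replicate 2.

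Hspa2 (chromosome 12, 76404176 to 76406938, plus strand), an HSP70 gene best known from the testis, rose as well. Its levels were 38.4, 41.6 and 40.2 CPM in NRF2 cells with romidepsin, against 5.9, 7.54 and 5.27 CPM with DMSO. In EV cells they were 29.1, 26.8 and 29 CPM with romidepsin and 4.59, 3.91 and 4.67 CPM with DMSO. No romidepsin library overlapped a DMSO library, and the rises were 6.32-fold (log2 2.66 ± 0.10, adjusted p = 7.6e-14) and 6.39-fold (log2 2.68 ± 0.11, adjusted p = 3e-13). Hspa13, an HSP70 relative of microsomes, rose 1.77-fold in NRF2 and 1.72-fold in EV cells. Hspa8, the constitutive HSC70 and the most abundant HSPA gene per kilobase in all groups, fell 1.32-fold in NRF2 cells, to 3554 ± 107 CPM with romidepsin against 4679.7 ± 112 CPM with DMSO (adjusted p = 2.4e-07). In EV cells the fall of Hspa8 was 1.16-fold (adjusted p = 0.0004), and it was not called with library size alone as the scaling (-0.09 on the log2 scale).

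Nucleotide exchange factors of the HSP110 kind moved little. Hsph1, which encodes HSP110, averaged 181 ± 8.44 CPM with romidepsin and 199.8 ± 18.9 CPM with DMSO in NRF2 cells, and 219.7 ± 10.5 and 205 ± 1.19 CPM in EV cells. Its log2 fold change was -0.14 ± 0.06 in NRF2 cells (adjusted p = 0.034) and 0.10 ± 0.06 in EV cells (adjusted p = 0.13). The first of these was not called without NRF2 DMSO replicate 3 (-0.08, adjusted p = 0.071) or without NRF2 romidepsin replicate 2 or 3 (-0.12 for each), and came to 0.00 with library size alone. RLE factors and DESeq2 (-0.11 for each) and a fit of these groups alone (-0.13) did not call it either. The EV value was called higher without NRF2 DMSO replicate 3 (adjusted p = 0.019). It was also called with upper-quartile factors (0.21), library size alone (0.22) and its groups fitted alone (0.12). Hspa4 and Hspa4l, which are of the same family despite their names, were not called in either line, with log2 fold changes of -0.05 ± 0.05 and -0.10 ± 0.08 in NRF2 cells and 0.04 ± 0.05 and -0.15 ± 0.08 in EV cells. The EV value of Hspa4l was called lower without NRF2 DMSO replicate 3 (-0.14, adjusted p = 0.011) and in a fit of these groups alone (-0.12, adjusted p = 0.041). That of Hspa4 was called higher with upper-quartile factors (0.15, adjusted p = 0.012) and with library size alone (0.16, adjusted p = 0.0064). Hspa14, a ribosome-bound HSPA protein, rose by 0.14 ± 0.05 and 0.24 ± 0.05 on the log2 scale in NRF2 and EV cells, the value of NRF2 cells not being called without NRF2 romidepsin replicate 1 (0.12, adjusted p = 0.055).

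**Figure D3:**
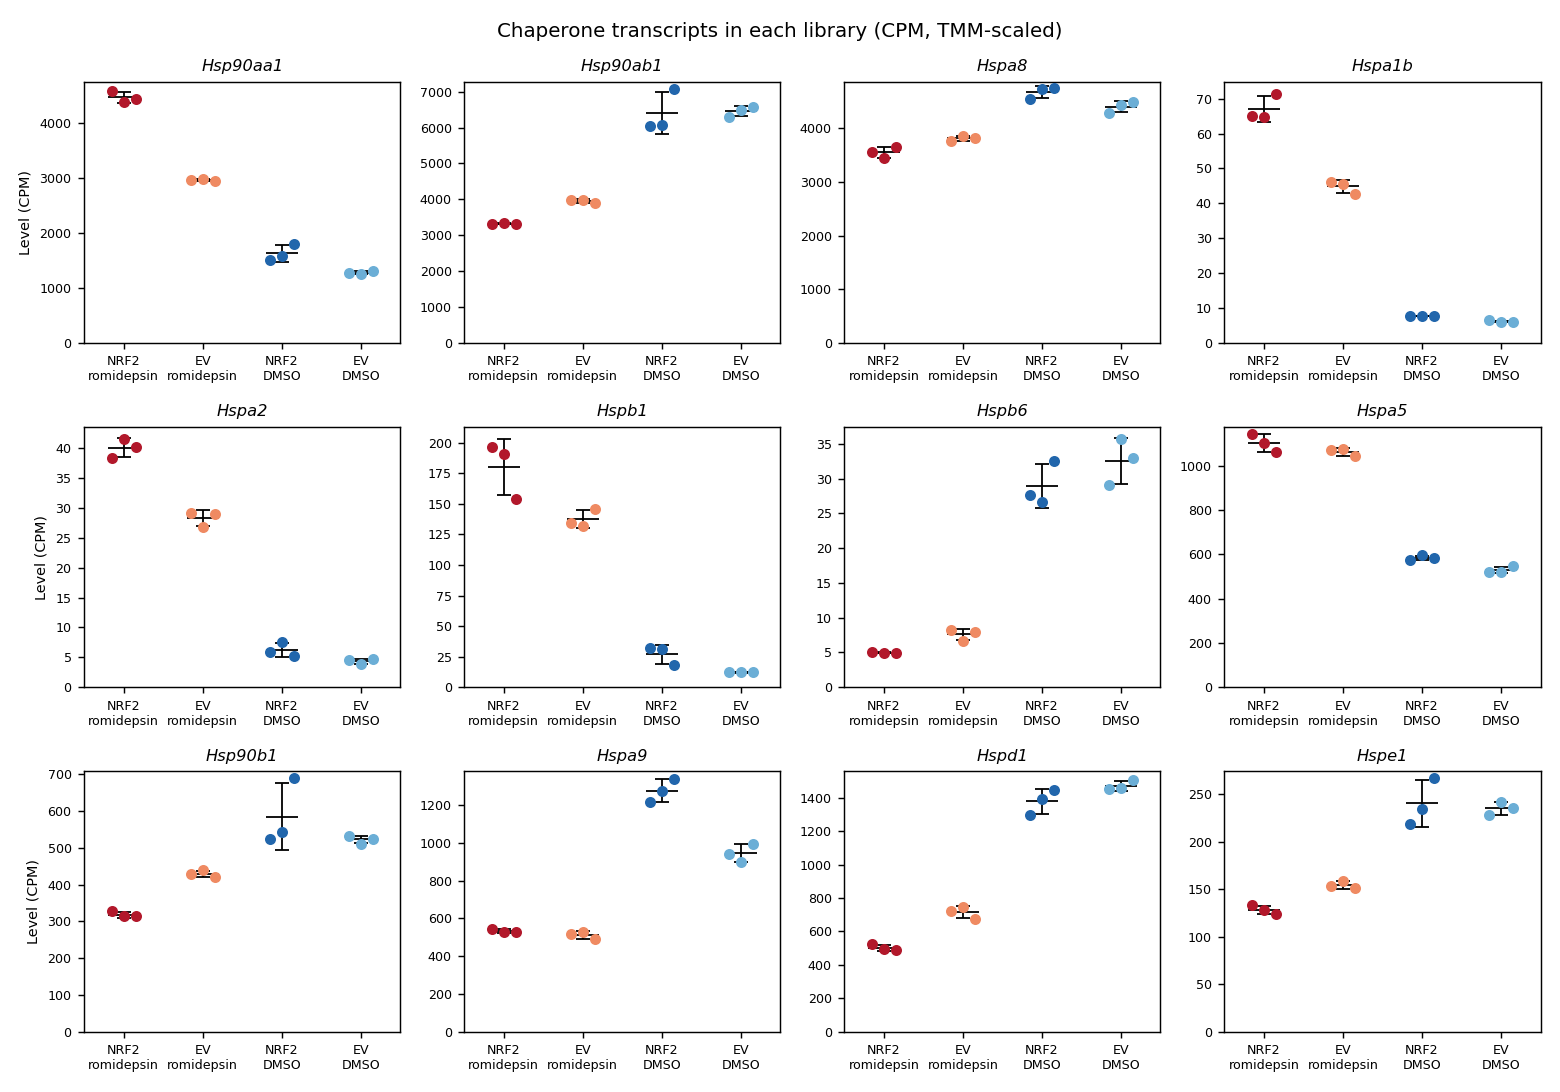
Level in CPM (TMM-scaled) of 12 chaperone genes in each of the 12 libraries; points are libraries, the bar is the mean and the whiskers the SD, and each axis starts at 0. Hsp90aa1, Hspa1b, Hspa2, Hspb1 and Hspa5 are higher in all romidepsin libraries than in all DMSO libraries, while Hsp90ab1, Hspa8, Hspb6, Hsp90b1, Hspa9, Hspd1 and Hspe1 are lower.

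Among the small heat shock proteins, 2 changed strongly and in opposite directions. Hspb1 (chromosome 5, 135887919 to 135889563, plus strand) encodes HSP27, which holds unfolded proteins and binds actin. It had 196, 191 and 154 CPM in NRF2 cells with romidepsin, against 31.8, 30.9 and 18.2 CPM with DMSO. EV cells had 134, 132 and 146 CPM with romidepsin and 12.1, 12.1 and 12.5 CPM with DMSO. All romidepsin libraries were above all DMSO libraries, and within each treatment all NRF2 libraries were above all EV libraries. The rise was 6.59-fold in NRF2 cells (log2 2.72 ± 0.18, adjusted p = 2.1e-07) and 11.2-fold in EV cells (log2 3.49 ± 0.19, adjusted p = 7.5e-08).

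Hspb6 (chromosome 7, 30552178 to 30555443, plus strand), which encodes HSP20 and is best known from muscle, fell to 5.1, 4.92 and 4.91 CPM in NRF2 cells with romidepsin, against 27.7, 26.6 and 32.5 CPM with DMSO. In EV cells it fell to 8.2, 6.67 and 7.98 CPM with romidepsin, against 29.1, 35.7 and 32.9 CPM with DMSO. These falls were 5.79-fold (log2 -2.53 ± 0.11, adjusted p = 4.4e-13) and 4.28-fold (log2 -2.10 ± 0.10, adjusted p = 4e-12), and the groups did not overlap. Exons of Hspb6 overlap those of Lin37 and Proser3 on the other strand, as those of 21 chaperone genes in all overlap another gene there, Dnaja4 with Wdr61, Dnaja1 with Smu1 and Cct7 with Pradc1 among them. Whether the libraries kept strand is not given in the sources used here, so the split of reads between such genes is uncertain. Exons of 9 tested chaperone genes overlap another gene on the same strand, where keeping strand would not part the reads. Among these are Hspb6 with Gm38670, Dnaja3 with Vasn and Hsp90b1 with Gm15344. Hspb11, an intraflagellar transport protein in spite of its symbol, was not called in either line, at 0.02 ± 0.09 and 0.16 ± 0.09 on the log2 scale. The EV value was called higher without EV romidepsin replicate 2 (0.24, adjusted p = 0.036), with upper-quartile factors (0.27), with library size alone (0.28) and in a fit of these groups alone (0.18). Summed over the class, small heat shock protein genes held 202 ± 22 CPM in NRF2 and 165 ± 9.71 CPM in EV cells with romidepsin, against 71.8 ± 3.38 and 62.1 ± 3.76 CPM with DMSO.

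Promoters were read for the sequence that heat shock factors bind, since the inducible genes above are its textbook targets. RefSeq promoters (GRCm38.p6, 250 bases before to 50 after each annotated start) were at hand for 51 of the 64 tested genes, and Hsp90aa1 was among the 13 not searched. A heat shock element of 3 units, GAANNTTC followed after NN by another GAA, on either strand, lay in a promoter of 0.662% of the 27025 genes in that table, and of Dnajb6, Hspd1, Hspe1 and Hsph1. A shorter element of 2 units, GAANNTTC, which is contained in the longer one, lay in a promoter of 9.04% of genes and of 12 of the 51 chaperones (23.5%), Hspa1a, Hspa1b and Hspb1 among them. The other arrangement of 2 units, TTCNNGAA, lay in a promoter of 9.6% of genes and of 7 of the 51 (13.7%). Hspa1a, Hspa1b and Hspb1 were not among those 7. These 2-unit motifs were added after the promoters had been searched. The stretches around them are shown in their genes' reading direction for Hspb1 and Hspa1b, which were among the genes that rose most, and for Dnajb6, which rose and holds the longer element, with the element in capitals.
Hspb1, chr5:135887782-135887849, plus strand: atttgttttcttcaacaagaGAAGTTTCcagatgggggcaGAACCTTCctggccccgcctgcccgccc
Hspa1b, chr17:34959315-34959362, minus strand: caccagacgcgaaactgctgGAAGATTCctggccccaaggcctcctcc
Dnajb6, chr5:29735832-29735884, plus strand: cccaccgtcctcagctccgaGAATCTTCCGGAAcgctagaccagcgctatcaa

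The Hspb1 stretch holds 2 elements and the Hspa1b stretch 1. A match says only that these letters are there. Genes that hold an element moved in both directions. Of the 12 with GAANNTTC, Hspa1a, Hspa1b, Hspb1 and Dnajb6 rose in both lines. Dnaja1, Dnaja4, Dnajc27, Hspb6, Hspd1 and Hspe1 fell in both, and Cct2 and Hsph1 were called lower in NRF2 cells alone. Under some settings the calls of Dnaja4, Cct2 and Hsph1 were lost.

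Chaperones of the ER lumen split into rises and falls. Hspa5 (chromosome 2, 34771970 to 34777547, plus strand) encodes BiP, the HSP70 of the ER. It had 1143, 1102 and 1060.3 CPM in NRF2 cells with romidepsin, against 576, 595 and 581 CPM with DMSO. The EV libraries had 1069, 1076 and 1043 CPM with romidepsin and 519, 520.4 and 545 CPM with DMSO. Romidepsin and DMSO libraries did not overlap, and the rise was 1.89-fold (log2 0.92 ± 0.04, adjusted p = 2.1e-12) in NRF2 and 2.01-fold (log2 1.01 ± 0.04, adjusted p = 9e-13) in EV cells. Dnajb11, the ER DNAJ that serves BiP, rose beside it, with 144, 147 and 142 CPM in NRF2 cells with romidepsin, against 66.4, 71.1 and 69.4 CPM with DMSO. In EV cells Dnajb11 rose 1.97-fold (log2 0.98 ± 0.05, adjusted p = 5.5e-12), and in NRF2 cells 2.09-fold (log2 1.06 ± 0.05, adjusted p = 1.1e-12).

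Hsp90b1 (chromosome 10, 86690209 to 86705509, minus strand), which encodes GRP94, the HSP90 of the ER, fell instead. It had 328, 314 and 314 CPM in NRF2 cells with romidepsin, against 524, 542 and 689 CPM with DMSO. EV cells had 428, 439 and 422 CPM with romidepsin and 532, 511 and 525 CPM with DMSO. The fall was 1.84-fold in NRF2 cells (log2 -0.88 ± 0.08, adjusted p = 3.5e-08) and 1.22-fold in EV cells (log2 -0.28 ± 0.08, adjusted p = 0.0035). The EV value was not called with upper-quartile scaling (-0.17, adjusted p = 0.058) or with library size alone (-0.16, adjusted p = 0.063). The ratio of Hspa5 to Hsp90b1 counts, which scaling cannot move, was 3.49, 3.51 and 3.38 in NRF2 and 2.5, 2.45 and 2.47 in EV libraries with romidepsin, against 1.1, 1.1 and 0.842 in NRF2 and 0.977, 1.02 and 1.04 in EV libraries with DMSO.

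Of the other ER members, Dnajb12, an ER membrane protein, fell 1.49-fold in NRF2 and 1.38-fold in EV cells. Dnajc3, which encodes P58IPK, fell too, with log2 fold changes of -0.25 ± 0.06 and -0.22 ± 0.06. It was not called with library size alone in NRF2 (-0.11, adjusted p = 0.11) or EV cells (-0.10, adjusted p = 0.14), nor with upper-quartile factors in EV cells (-0.11). Dnajb9, which encodes ERDJ4, was not called in either line, at 0.00 ± 0.09 in NRF2 and 0.10 ± 0.10 in EV cells, though library size alone called the EV value higher (0.22, adjusted p = 0.04). In all, 5 of the 13 ER members were higher and 4 lower in each line, where 40.5% and 39.3% of all genes were called higher and lower in NRF2 cells. With library size alone 7 were higher and 3 lower in NRF2 cells, and 8 and 1 in EV cells. Under that scaling 6256 of 13502 genes were higher and 4561 lower in NRF2 cells, and 6051 and 4332 in EV cells. The ER stress element, CCAAT and CCACG parted by NNNNNNNNN, on either strand, lay in a promoter of 0.137% of genes, and among the chaperones searched in those of Hspa5, Hsp90b1 and Dnajc3. These stretches are shown because genes with the same element moved in different directions, with the element in capitals.
Hspa5, chr2:34772005-34772063, plus strand: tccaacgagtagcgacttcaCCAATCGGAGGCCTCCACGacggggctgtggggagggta
Hsp90b1, chr10:86705513-86705676, minus strand: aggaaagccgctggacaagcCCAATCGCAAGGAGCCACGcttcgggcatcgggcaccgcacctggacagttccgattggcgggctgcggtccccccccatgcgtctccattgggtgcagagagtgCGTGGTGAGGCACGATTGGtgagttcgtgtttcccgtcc
Dnajc3, chr14:118937807-118937865, plus strand: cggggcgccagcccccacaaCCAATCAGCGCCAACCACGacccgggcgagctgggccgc

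The Hsp90b1 promoter held the element at 2 positions, once in each orientation. Of these 3 genes, Hspa5 rose and Hsp90b1 and Dnajc3 fell in both lines, apart from the scalings named above under which the falls were not called.

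Most mitochondrial chaperones fell. Hspd1 (chromosome 1, 55077835 to 55088243, minus strand) encodes HSP60, the folding chamber of the matrix, and Hspe1 (chromosome 1, 55088132 to 55091307, plus strand) its lid HSP10. Hspd1 had 524, 494 and 490.2 CPM in NRF2 cells with romidepsin, against 1298, 1389 and 1444 CPM with DMSO. EV cells had 725, 744 and 675 CPM with romidepsin and 1451, 1457 and 1506 CPM with DMSO. The fall was 2.74-fold in NRF2 cells (log2 -1.45 ± 0.05, adjusted p = 4.6e-14) and 2.06-fold in EV cells (log2 -1.04 ± 0.05, adjusted p = 5.3e-12), with no overlap between the groups.

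Hspe1 fell less. It had 133, 128 and 124 CPM in NRF2 cells with romidepsin, against 219, 235 and 267 CPM with DMSO, and 153, 159 and 151 CPM in EV cells with romidepsin, against 228, 242 and 236 CPM with DMSO. Its falls were 1.88-fold (log2 -0.91 ± 0.06, adjusted p = 1.6e-10) and 1.53-fold (log2 -0.61 ± 0.06, adjusted p = 4.4e-08). Counts of Hspd1 per count of Hspe1 were 3.94, 3.87 and 3.97 in NRF2 and 4.73, 4.68 and 4.48 in EV libraries with romidepsin, against 5.92, 5.92 and 5.4 in NRF2 and 6.38, 6.02 and 6.37 in EV libraries with DMSO. The genes lie head to head, with annotated starts 216 bases apart and overlapping exons on opposite strands, so that reads from the overlap cannot be told apart without strand. They share a promoter, and its heat shock element is shown from the Hspd1 side, with 2 overlapping matches of the 3-unit element in capitals.
Hspd1 and Hspe1, chr1:55088039-55088096, minus strand: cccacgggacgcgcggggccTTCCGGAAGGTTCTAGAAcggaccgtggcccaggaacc

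Hspa9, the matrix HSP70 known as mortalin, which also pulls proteins through the inner membrane, fell as well. It had 547, 526 and 527 CPM in NRF2 cells with romidepsin, against 1218, 1276 and 1337 CPM with DMSO. In EV cells it had 519.7, 527 and 489 CPM with romidepsin and 939, 901 and 997 CPM with DMSO. The falls were 2.39-fold (log2 -1.26 ± 0.05, adjusted p = 2.4e-13) and 1.85-fold (log2 -0.89 ± 0.05, adjusted p = 3.8e-11), again without overlap. Dnajc19, a subunit of the import motor, fell 1.64-fold in NRF2 and 1.28-fold in EV cells, and Dnajc11, a protein of the cristae-organising complex, 1.4-fold and 1.23-fold. Of the 8 mitochondrial members, 6 were lower in each line, where 39.3% of all genes were lower in NRF2 and 37.4% in EV cells, with a median log2 fold change of -0.60 in NRF2 and -0.33 in EV cells. Dnajc30 and Dnajc15 went the other way: Dnajc30 rose by 0.38 ± 0.08 and 0.44 ± 0.08 on the log2 scale, and Dnajc15 by 0.40 ± 0.09 in NRF2 cells, with 0.10 ± 0.09 in EV cells, which was not called. The fall of Dnaja3, which encodes the matrix DNAJ TID1, was small, at -0.12 ± 0.05 and -0.25 ± 0.05. In NRF2 cells it was not called without NRF2 DMSO replicate 1 (-0.09) or NRF2 romidepsin replicate 2 or 3 (-0.11 for each), and it turned to 0.02 with library size alone. RLE factors and DESeq2 did not call the NRF2 value either (-0.09 for each).

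The DNAJ classes differed in direction. In the DNAJB class 6 of 9 tested genes rose in each line, where 40.5% of all genes rose in NRF2 and 39.1% in EV cells, with a median log2 fold change of 0.45 in NRF2 and 0.44 in EV cells. Dnajb4, a cytosolic co-chaperone of HSP70, had 68.2, 61.7 and 64.1 CPM in NRF2 cells with romidepsin, against 27.4, 30.7 and 32.8 CPM with DMSO, and rose 2.13-fold there (log2 1.09 ± 0.07, adjusted p = 7.4e-11) and 1.84-fold in EV cells. Dnajb5 rose 1.53-fold in NRF2 and 2.25-fold in EV cells, and Dnajb2, which is best known from neurons, 1.54-fold and 1.36-fold. Dnajb6, which keeps aggregation-prone proteins in solution, rose 1.37-fold and 1.44-fold. Dnajb1, the classical heat-inducible HSP40, rose only 1.31-fold in NRF2 cells, to 95.6 ± 3.3 CPM against 73.1 ± 2.34 CPM with DMSO (adjusted p = 3.8e-06), and 1.29-fold in EV cells. Across classes, of 11 members listed as heat-inducible in the cytosol and nucleus, 6 rose and 4 fell in NRF2 cells, and 6 and 3 in EV cells. Over all genes 40.5% rose and 39.3% fell in NRF2 cells, and 39.1% and 37.4% in EV cells.

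All 4 tested DNAJA genes were called lower in each line, against 39.3% of all genes in NRF2 and 37.4% in EV cells. The number depended on scaling: with RLE factors (the median-of-ratios kind that DESeq2 uses) 2 of the 4 were called lower in NRF2 and 3 in EV cells, and with upper-quartile factors or library size alone 2 in each line. Over all 13502 genes, library size alone called 4561 lower in NRF2 and 4332 in EV cells. With library size alone, Dnaja3 in NRF2 cells and Dnaja2 in EV cells came to 0.02 and 0.00 on the log2 scale. Dnaja1, the main partner of HSC70 in the cytosol, fell to 138, 137 and 143 CPM in NRF2 cells with romidepsin, against 209, 223 and 251 CPM with DMSO. That was 1.63-fold (log2 -0.71 ± 0.05, adjusted p = 1.2e-09), and in EV cells the fall was 1.5-fold (log2 -0.59 ± 0.05, adjusted p = 2.1e-08). The fall of Dnaja4 was called at -0.28 ± 0.12 and -0.38 ± 0.15 on the log2 scale. It was lost in NRF2 cells without NRF2 DMSO replicate 2 (-0.22), NRF2 romidepsin replicate 2 (-0.23) or 3 (-0.26), or EV romidepsin replicate 2 or 3 (-0.28 for each). In EV cells it was lost without EV DMSO replicate 2 (-0.32) or 3 (-0.33), or EV romidepsin replicate 2 (-0.32) or 3 (-0.31). The NRF2 call of Dnaja4 was also lost with each other scaling and filter, the replicate block (-0.28), DESeq2 (-0.24) and limma on the deposited normalized values (-0.24). Its EV call was lost with upper-quartile factors (-0.27), library size alone (-0.26) and DESeq2 (-0.35). The fall of Dnaja2 in EV cells (-0.12 ± 0.05) was lost without EV DMSO replicate 3 (-0.09) or EV romidepsin replicate 1, 2 or 3 (-0.11, -0.12 and -0.11). RLE factors and DESeq2 did not call it either (-0.09 for each).

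The DNAJC class, whose members share little beyond the J domain, had 6 of 25 tested genes higher and 12 lower in NRF2 cells, where 40.5% of all genes were higher and 39.3% lower. In EV cells 5 were higher and 12 lower, beside 39.1% and 37.4% of all genes. With library size alone 9 were higher and 10 lower in each line, where 6256 of 13502 genes were higher and 4561 lower in NRF2 cells. In EV cells the counts over all genes were 6051 and 4332. The class median with this scaling was 0.04 in NRF2 and 0.01 in EV cells, above 0 but below the 0.15 and 0.13 of all genes. Dnajc22 fell furthest, to 8.37, 7.95 and 7.87 CPM in NRF2 cells with romidepsin, against 47.1, 48.6 and 43.7 CPM with DMSO. In EV cells it fell to 7.76, 6.94 and 6.56 CPM, against 29.7, 27.1 and 25.7 CPM with DMSO. These were falls of 5.77-fold (log2 -2.53 ± 0.08, adjusted p = 8.8e-15) and 3.87-fold (log2 -1.95 ± 0.08, adjusted p = 7.5e-13). Dnajc2, a ribosome-bound J protein, fell 1.78-fold and 1.38-fold in NRF2 and EV cells, Dnajc7, which also binds HSP90, 1.68-fold and 1.41-fold, and Dnajc9, a histone chaperone, 1.69-fold and 1.25-fold.

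Dnajc12, a partner of the aromatic amino acid hydroxylases, rose most in its class in NRF2 cells. It had 13.6, 13.7 and 14.9 CPM in NRF2 cells with romidepsin, against 4.18, 4.19 and 4.12 CPM with DMSO, and 9.04, 11 and 9.91 CPM in EV cells with romidepsin, against 5.07, 4.97 and 4.63 CPM with DMSO. The groups did not overlap, and the rises were 3.37-fold (log2 1.75 ± 0.10, adjusted p = 2.2e-11) and 2.05-fold (log2 1.03 ± 0.10, adjusted p = 4.6e-08). Dnajc28 rose 2.04-fold and 2.43-fold in NRF2 and EV cells, at 4.64 and 4.85 CPM with romidepsin. Dnajc5, which encodes the cysteine string protein of secretory vesicles, did not pass the test in either line (-0.06 ± 0.04 and -0.04 ± 0.04), though it did in NRF2 cells without NRF2 DMSO replicate 3 (-0.10, adjusted p = 0.026).

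The CCT ring genes fell slightly and unequally. Cct3, Cct4 and Cct5 fell most, with log2 fold changes of -0.52 ± 0.05, -0.50 ± 0.04 and -0.52 ± 0.04 in NRF2 cells, and of -0.33 ± 0.05, -0.44 ± 0.04 and -0.44 ± 0.04 in EV cells. Cct4, for example, had 336, 319 and 330.3 CPM in NRF2 cells with romidepsin, against 461, 479 and 449 CPM with DMSO. The other ring genes moved by less, with log2 fold changes of -0.17 ± 0.05 for Cct2, -0.17 ± 0.05 for Cct7 and -0.13 ± 0.04 for Cct8 in NRF2 cells and -0.09 ± 0.05, -0.17 ± 0.05 and -0.15 ± 0.04 in EV cells, of which Cct2 in EV cells was not called, except without NRF2 DMSO replicate 3 (adjusted p = 0.017). None of these smaller values was called with library size alone, where Cct8 in NRF2 cells came to 0.01. The call of Cct8 in NRF2 cells was also lost without NRF2 romidepsin replicate 2 (-0.11, adjusted p = 0.059). Tcp1, which encodes the CCT1 subunit under another symbol, fell as well (log2 -0.67 ± 0.04 in NRF2 and -0.51 ± 0.04 in EV cells). Cct6a, the remaining ring gene, was not analysed here. Cct6b, its testis form, was called higher at levels of 0.617 and 0.49 CPM with romidepsin, where NRF2 and EV cells with DMSO held 3 and 7 counts in all. Together the class held 2659.9 ± 57.6 CPM in NRF2 and 2869 ± 42.7 CPM in EV cells with romidepsin, against 3339 ± 85.6 and 3433 ± 89.7 CPM with DMSO.

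The order of abundance shifted accordingly. Per kilobase of transcript, the 3 most abundant chaperones with DMSO were Hsp90ab1, Hspa8 and Hspd1, at 2538, 2121 and 568 CPM per kilobase in NRF2 cells and 2561, 1998 and 607 in EV cells. In NRF2 cells with romidepsin they were Hspa8, Hsp90aa1 and Hsp90ab1, at 1611, 1459 and 1316 CPM per kilobase. In EV cells with romidepsin they were Hspa8, Hsp90ab1 and Hsp90aa1, at 1729, 1569 and 968. All chaperone genes together held 20179 ± 318 CPM in NRF2 and 20165 ± 211 CPM in EV cells with romidepsin. With DMSO they held 23727 ± 1239.9 and 22844 ± 461 CPM, a ratio of romidepsin to DMSO of 0.85 and 0.883. These values are after TMM scaling, and without scaling the fall was smaller. Unscaled, these genes took 2.07 to 2.13% of counts in NRF2 libraries with romidepsin, against 2.16 to 2.36% with DMSO. In EV libraries the unscaled share was at most 2.14% with romidepsin, and every DMSO library lay above that, up to 2.23%.

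Fewer chaperones were called for NRF2 overexpression without romidepsin than for romidepsin. Between NRF2 and EV cells with DMSO, 18 of the 64 tested genes were higher and 11 lower, which is 45.3% called, against 36.3% of all genes (19.3% higher and 16.9% lower). The count of lower genes was 16 without NRF2 DMSO replicate 3, 6 without EV DMSO replicate 3, and 7 without NRF2 DMSO replicate 1 or 2, and 2 in a fit of these groups alone. Called differences of at least 2-fold were found for Hspb1 and Dnaja4. Hspb1 stood 2.23-fold higher in NRF2 cells (log2 1.16 ± 0.20, adjusted p = 0.0017), and by 1.36 on the log2 scale without NRF2 DMSO replicate 3, the lowest of its group. Dnaja4 had 7.67, 9.02 and 8.48 CPM in NRF2 cells, against 3.2, 4.32 and 4.13 CPM in EV cells, or 2.16-fold (log2 1.11 ± 0.13, adjusted p = 4.2e-06).

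Further genes that stood higher in NRF2 cells with DMSO were Dnajc22 (1.7-fold, log2 0.76 ± 0.07), Hspa2 (1.43-fold, log2 0.52 ± 0.13), Dnajc18 (1.43-fold, log2 0.52 ± 0.07) and Hspa9 (1.35-fold, log2 0.43 ± 0.05). Hspa9 had 1218, 1276 and 1337 CPM in NRF2 cells, against 939, 901 and 997 CPM in EV cells, without overlap. Its matrix partners did not share this: Hspd1 came to -0.10 ± 0.05 (adjusted p = 0.17) and Hspe1 to 0.03 ± 0.06 (adjusted p = 0.74). Without NRF2 DMSO replicate 3, Hspd1 was called lower in NRF2 cells, at -0.13 (adjusted p = 0.012). Hsp90aa1 was 1.28-fold higher (adjusted p = 9.9e-05), while Hsp90ab1 came to -0.01 ± 0.06 (adjusted p = 0.88), or -0.09 without NRF2 DMSO replicate 3 (adjusted p = 0.047). Of the genes called lower, Dnajc15, an inner membrane protein, differed most, at -0.46 ± 0.09 on the log2 scale (adjusted p = 0.0007), with 6.49, 7.46 and 7.39 CPM in NRF2 against 9.4, 9.71 and 10.3 CPM in EV cells. The core of the antioxidant response element, TGACNNNGC on either strand, to which NRF2 binds, lay in a promoter of 14.0% of the genes in the RefSeq table and in those of 9 of the 51 chaperones searched (17.6%). Dnajb1, Dnaja2, Dnajc17 and Hsph1 were among these 9, and Dnaja4 and Hspb1 held no match in this window.

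**Figure D4:**
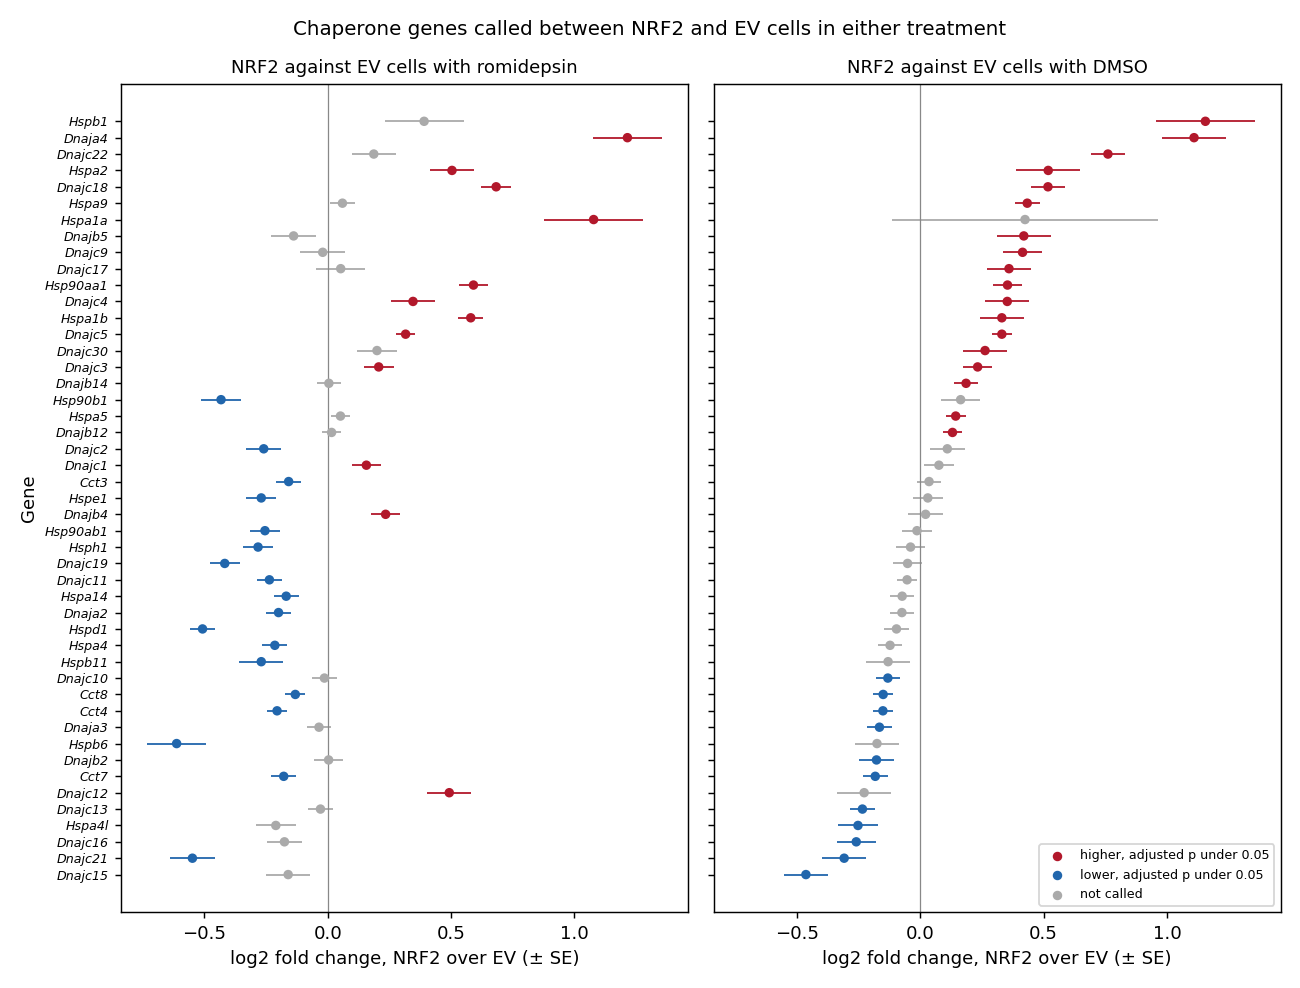
Log2 fold change of NRF2 over EV cells with romidepsin (left) and with DMSO (right) for the 47 chaperone genes called in either treatment, ordered by the value with DMSO; points are estimates, lines are ± SE, and colour gives the call. Dnaja4, Dnajc18, Hspa2, Hsp90aa1 and Hspa1b lie to the right in both panels, while Hspd1, Hspe1, Hsp90ab1 and Hsp90b1 are called lower with romidepsin and not called with DMSO.

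With romidepsin in both lines, 12 of the 64 genes were higher and 18 lower in NRF2 than in EV cells, which is 46.9% called, against 45.4% of all genes (23.0% higher and 22.4% lower). Dnaja4 had 7.48, 6.57 and 6.79 CPM in NRF2 cells, against 3.54, 2.75 and 2.69 CPM in EV cells, 2.32-fold (log2 1.22 ± 0.14, adjusted p = 2.3e-06), the largest called difference in this comparison. Dnajc18 was 1.61-fold higher (log2 0.68 ± 0.06) and Hspa2 1.42-fold (log2 0.50 ± 0.09). Dnajc5 was 1.24-fold higher with romidepsin and 1.26-fold higher with DMSO. Of the 11 members listed as heat-inducible in the cytosol and nucleus, 4 were higher in NRF2 cells, 2 lower and 5 not called, beside the same shares of all genes. Of the inducible genes described above, Hsp90aa1 was 1.51-fold higher (log2 0.59 ± 0.06, adjusted p = 3.2e-07) and Hspa1b 1.49-fold (log2 0.58 ± 0.05, adjusted p = 2.3e-07). For Hspb1 the value was 0.39 ± 0.16 (adjusted p = 0.07), which was called without NRF2 romidepsin replicate 3 (0.49, adjusted p = 0.034) or NRF2 DMSO replicate 3 (0.38, adjusted p = 0.0042).

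Those lower in NRF2 cells with romidepsin included Hspb6 (1.53-fold, log2 -0.61 ± 0.12), Dnajc21, a J protein of ribosome assembly (1.46-fold, log2 -0.55 ± 0.09), Hspd1 (1.42-fold, log2 -0.51 ± 0.05), Hsp90b1 (1.35-fold, log2 -0.43 ± 0.08) and Dnajc19 (1.34-fold, log2 -0.42 ± 0.06). Hsp90ab1 and Hspe1 followed, at -0.25 ± 0.06 and -0.27 ± 0.06. Hsph1, Hspa4 and Cct4 were lower too, at -0.28 ± 0.06, -0.21 ± 0.05 and -0.21 ± 0.04. Of the 18 genes that were higher in NRF2 cells with DMSO, 8 were also higher with romidepsin, which is 44.4% of those and 66.7% of the 12 with romidepsin. Among the lower genes 4 were shared, 36.4% of the 11 with DMSO and 22.2% of the 18 with romidepsin. These overlaps were not counted over all genes.

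The romidepsin effect itself was compared between the lines with the interaction term, the log2 effect in NRF2 cells minus that in EV cells. It was called for 11 of the 64 genes, 1 higher and 10 lower, which is 17.2%, against 15.8% of all genes (5.53% higher and 10.2% lower). The lower count was 6 without EV DMSO replicate 1 or NRF2 romidepsin replicate 2, and the higher count 2 without EV DMSO replicate 3 and 4 without NRF2 DMSO replicate 3. For 9 of the 10 lower genes this meant a larger fall in NRF2 cells than in EV cells. In the mitochondrion these were Hspd1 (difference -0.41 ± 0.07, adjusted p = 0.001), Hspa9 (-0.37 ± 0.07, adjusted p = 0.002), Dnajc19 (-0.37 ± 0.09, adjusted p = 0.0079) and Hspe1 (-0.30 ± 0.08, adjusted p = 0.022), or 4 of the 8 mitochondrial members. Hspd1 and Hspa9 differed in where the lines parted: Hspd1 was lower in NRF2 than in EV cells with romidepsin (524, 494 and 490.2 against 725, 744 and 675 CPM) and not called with DMSO. Hspa9 was called between the lines with DMSO alone, and with romidepsin its values overlapped (547, 526 and 527 CPM in NRF2 against 519.7, 527 and 489 CPM in EV cells). Like Hspa9, the genes Dnajc22, Dnajc9 and Dnajb5 were called higher in NRF2 cells with DMSO and not called with romidepsin.

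Outside the mitochondrion, in the fit of all libraries, Hsp90b1 had the largest called negative difference (-0.60 ± 0.11, adjusted p = 0.0018), followed by Dnajc22 (-0.57 ± 0.12, adjusted p = 0.0032), Dnajb5 (-0.56 ± 0.14, adjusted p = 0.012), Dnajc9 (-0.43 ± 0.12, adjusted p = 0.022), Dnajc2 (-0.37 ± 0.10, adjusted p = 0.025) and Hsp90ab1 (-0.24 ± 0.08, adjusted p = 0.046). Hsp90b1 was highest in NRF2 DMSO replicate 3, the library that stood apart. With 1 library left out, its romidepsin change ran from -0.95 to -0.76 in NRF2 cells and from -0.30 to -0.27 in EV cells. Dnajb5 rose in both lines and rose less in NRF2 cells, with 7.95, 7.8 and 7.7 CPM with romidepsin against 5.16, 4.99 and 5.21 CPM with DMSO, than in EV cells, with 8.1, 8.74 and 8.97 against 3.85, 4.09 and 3.59 CPM. Dnajc12 was the gene whose rise was larger in NRF2 cells (0.72 ± 0.14, adjusted p = 0.0026). Calls of Hspd1, Hspa9, Hsp90b1, Dnajc19, Dnajc22, Dnajb5 and Dnajc12 held in each of the 12 fits that left out 1 library. Those of Hspe1, Dnajc2 and Dnajc9 were lost without EV DMSO replicate 1 (-0.28, -0.35 and -0.37), EV romidepsin replicate 2 (-0.28, -0.35 and -0.43) or NRF2 romidepsin replicate 2 (-0.30, -0.38 and -0.43). Hspe1 and Dnajc2 were also lost without NRF2 romidepsin replicate 3 (-0.28 and -0.33), Dnajc2 without EV DMSO replicate 2 (-0.37) and Dnajc9 without EV romidepsin replicate 1 (-0.41).

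The call of Hsp90ab1 was lost when any library other than those of NRF2 cells with DMSO was left out, with adjusted p up to 0.11 and differences of -0.26 to -0.22. Some differences that missed the threshold were called without the NRF2 DMSO library that stood apart, replicate 3. For Hsp90aa1 the difference was 0.24 ± 0.08 (adjusted p = 0.054), and 0.30 without it (adjusted p = 2.4e-05). With all libraries it was also called with library size alone (0.26, adjusted p = 0.031), with no filter, with DESeq2 and with limma-voom. For Hspb1 the difference was -0.77 ± 0.26 (adjusted p = 0.08), and -0.98 without it (adjusted p = 0.0021), and with all libraries DESeq2 called it (-0.75, adjusted p = 0.041). Without that library 15 chaperones were lower in the interaction. Hspa1b and Hspa2, whose rises were among the largest, did not pass the test of the difference, at 0.25 ± 0.10 (adjusted p = 0.11) and -0.02 ± 0.15 (adjusted p = 0.97).

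**Figure D5:**
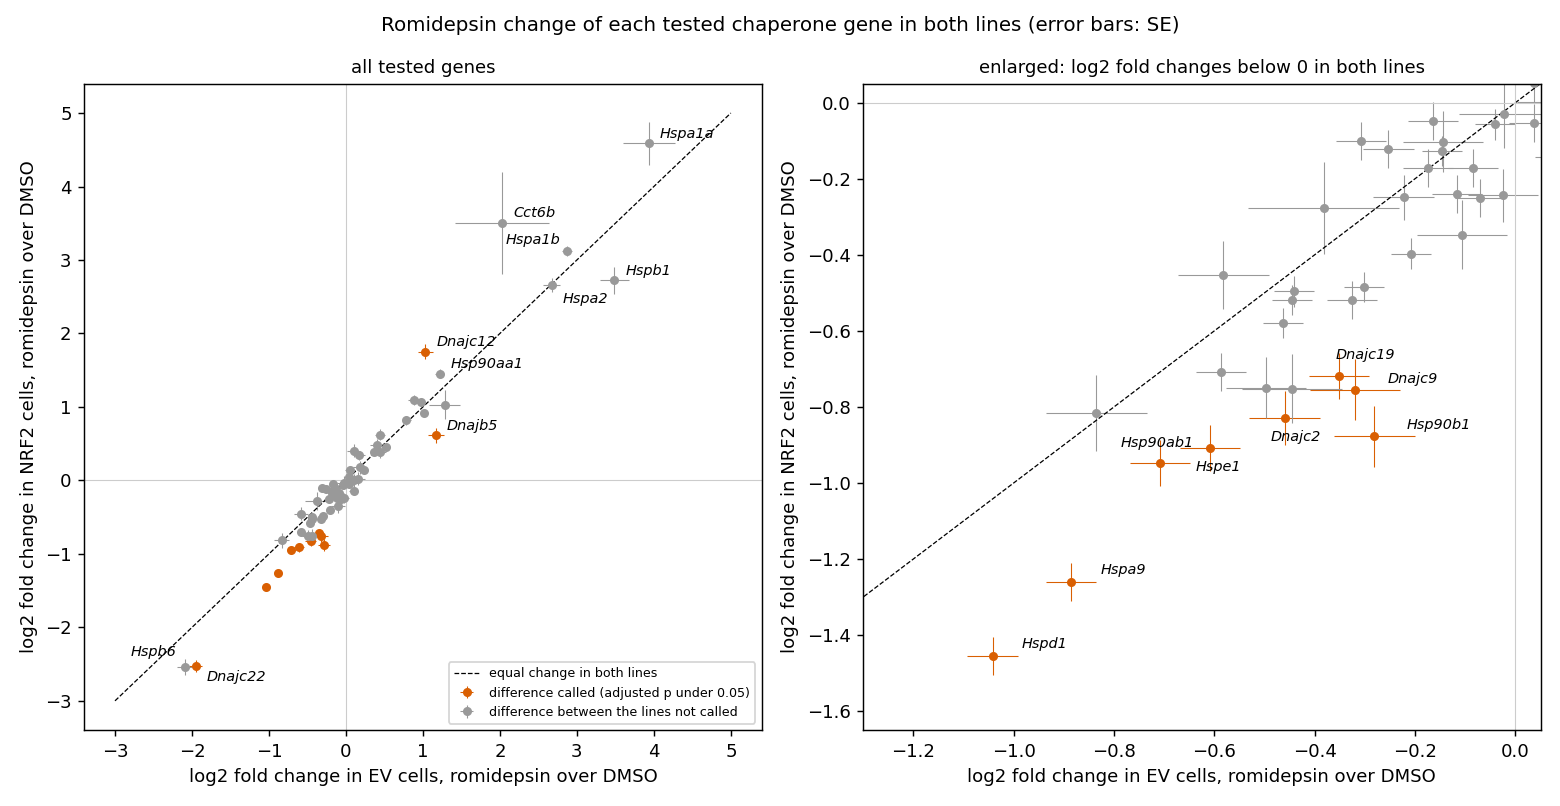
Log2 fold change of romidepsin over DMSO in NRF2 cells (vertical) against that in EV cells (horizontal) for the 64 tested chaperone genes, all of them (left) and the region below 0 enlarged (right); points are genes, bars ± SE, and colour marks a called difference between the lines. The called genes that fell, Hspd1, Hspa9, Hsp90b1, Hspe1, Hsp90ab1, Dnajc2, Dnajc9, Dnajc19 and Dnajc22, lie below the line of equal change, with differences of -0.24 to -0.60.

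Genes that work with these chaperones were counted from lists drawn up from textbook knowledge with earlier results of these data known. The lists share genes, Stip1, Fkbp4 and Cryab among them. Of 33 co-chaperones, 12 rose and 15 fell in NRF2 cells and 13 and 15 in EV cells, against 40.5% higher and 39.3% lower, and 39.1% and 37.4%, over all genes in NRF2 and EV cells. With library size alone 17 rose and 13 fell in NRF2 cells and 16 and 13 in EV cells. Of all 13502 genes, 6256 then rose and 4561 fell in NRF2 cells, and 6051 and 4332 in EV cells. Grpel1, the nucleotide exchange factor of Hspa9, rose to 205 ± 8.21 CPM in NRF2 cells with romidepsin, against 86.4 ± 12.8 CPM with DMSO (2.37-fold, adjusted p = 2.2e-09), and 2.23-fold in EV cells, while Hspa9 itself fell. Sgta, which hands membrane proteins to their insertion pathway, rose 2.26-fold in NRF2 and 1.9-fold in EV cells. Bag5, an exchange factor of HSP70, fell 2.77-fold and 1.91-fold, and the HSP90 co-chaperone Ppid 1.88-fold and 1.6-fold. Stip1, which joins HSP70 to HSP90, rose 1.42-fold and 1.46-fold.

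Of 18 heat shock factors and other heat shock targets, 7 rose and 8 fell in NRF2 cells (all genes: 40.5% and 39.3%), and 9 and 7 in EV cells (39.1% and 37.4%). Hsf1, the main heat shock factor, fell to 52.9 ± 2.56 CPM in NRF2 cells with romidepsin, against 77.4 ± 4.13 CPM with DMSO (log2 -0.55 ± 0.05), and likewise in EV cells (log2 -0.48 ± 0.05). Hsf2 rose 1.66-fold and 1.51-fold. Serpinh1, the collagen chaperone HSP47, fell 2.87-fold in NRF2 and 2.56-fold in EV cells, and Cryab, a small heat shock protein by another symbol, rose 3.51-fold and 1.85-fold. Among 15 folding partners of CCT, 6 rose and 4 fell in NRF2 cells and 7 and 3 in EV cells, beside the same shares of all genes, with Tbcc, a tubulin cofactor, rising most (1.93-fold and 1.75-fold). With library size alone 10 of the 18 heat shock genes rose and 7 fell in each line. Of the 15 folding partners 8 then rose and 3 fell in NRF2 cells, and 10 and 3 in EV cells. Of all 13502 genes, 6256 rose and 4561 fell in NRF2 cells under this scaling, and 6051 and 4332 in EV cells.

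Of 18 other organelle chaperones 16 could be tested, of which 6 rose and 5 fell in NRF2 cells (all genes: 40.5% and 39.3%) and 9 and 5 in EV cells (39.1% and 37.4%). With library size alone 7 rose and 4 fell in NRF2 cells, and 10 and 2 in EV cells. Of all 13502 genes, 6256 then rose and 4561 fell in NRF2 cells, and 6051 and 4332 in EV cells. In the ER, Sdf2l1, a partner of BiP complexes, rose 2.58-fold in NRF2 and 2.57-fold in EV cells, and Calr, the lectin chaperone calreticulin, 1.88-fold and 2.28-fold. In the mitochondrion, Trap1, the HSP90 of the matrix, fell 1.68-fold and 1.53-fold, beside the falls of Hspd1, Hspe1 and Hspa9.

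The 19 chaperone genes that were not tested averaged at most 0.262 CPM over the libraries, just under the 0.32 CPM of the lowest tested gene, Cct6b. For 6 of them, Dnaja1-ps, Dnajb3, Dnajb7, Dnajb8, Dnajc5g and Hspb3, no library had a count. The other 13 had 1 to 66 counts over the 12 libraries. Hspa12b, a distant HSP70 relative, had 16 counts in NRF2 and 9 in EV cells with romidepsin, against 28 and 13 with DMSO. Hspa1l, the testis HSP70 gene beside Hspa1a, had 11 and 7 counts with romidepsin, against 4 and 1 with DMSO. These counts are too few to test.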

How the data were processed

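Poly-A RNA of KP1 cells was sequenced in 12 libraries. Per the labels' protocols, Trizol was used for extraction and TruSeq reagents for library preparation. Per the submitters' processing notes, which name no order, bcl2fastq 2.19, kallisto 0.44.0, DESeq2 and the GRCm38 build were used. The authors deposited kallisto's estimated counts per gene, rounded to whole numbers, and a normalized signal from DESeq2. Strandedness is not given in the sources used here.

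From the estimated counts, genes were filtered with filterByExpr, scaled by TMM and fitted with edgeR 4.0.16 (R 4.3.3) in 1 quasi-likelihood model of all 4 groups (8 residual degrees of freedom). 5 contrasts were tested, each adjusted by Benjamini-Hochberg over 13502 genes, and called at adjusted p under 0.05. An SE is the log2 fold change over the root of F. The test was also run on simulated data, with an outcome that is not given here. All p-values in the text are from this model. Alternatives were other scalings and filters, DESeq2 1.42.0, limma 3.58.1, the compared groups alone, the replicate number as a block, and each library left out. Class sums and ratios carry no test.

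Members, lists and tests were chosen with earlier results of these data known. Named were the tested HSP90, HSP110, HSPA, HSPD1, HSPE1, small HSP and CCT genes averaging at least 5 CPM, the 4 called genes with the largest change per direction in each DNAJ class and comparison, and up to 4 per list, with at least 1 CPM. Cct6b, Dnajb1, Dnajb9 and Dnajc3 were added after their values were seen, for their roles. Gene positions are from GENCODE M21, promoters from RefSeq.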

Additional observations from a re-analysis of the deposited data

Results flagged for a closer look

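For 11 chaperone genes the effect of romidepsin differed between the lines by the test of the difference itself (edgeR quasi-likelihood interaction term, adjusted p under 0.05), where 15.8% of all genes did. As log2 effect in NRF2 cells minus that in EV cells, the values were -0.60 for Hsp90b1, -0.57 for Dnajc22, -0.56 for Dnajb5, -0.43 for Dnajc9, -0.41 for Hspd1, -0.37 for Hspa9, -0.37 for Dnajc19, -0.37 for Dnajc2, -0.30 for Hspe1, -0.24 for Hsp90ab1 and 0.72 for Dnajc12. The effect itself was -0.88 in NRF2 and -0.28 in EV cells for Hsp90b1, and -1.45 and -1.04 for Hspd1. It was 0.61 in NRF2 and 1.17 in EV cells for Dnajb5, a rise in both.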

How the results depend on the processing

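Counts of chaperones called higher and lower stayed within 1.5 times the values given under all settings run, except for these. Between NRF2 and EV cells with DMSO the 11 lower genes became 2 with these groups fitted alone, 4 at adjusted p under 0.01, and 6 to 16 when 1 library was left out. For the interaction the 1 higher gene became 2 with library size alone, no filter, DESeq2 or limma-voom, and 1 to 4 when 1 library was left out. The 10 lower genes became 5 at adjusted p under 0.01, and 6 to 15 when 1 library was left out. The cause was not tested. Directions of called values turned with library size alone, to 0.01 for Cct8 and 0.02 for Dnaja3 in NRF2 cells and 0.00 for Dnaja2 in EV cells. The summed HSPA level in EV cells, romidepsin over DMSO, turned to 0.03 with upper-quartile factors and 0.04 with library size alone. Over the class levels and settings compared, 85 values were marked as the same, 33 as moved and 2 as turned in direction. Over the named chaperones and all settings, 6422 values kept their call or stayed uncalled, 109 gained a call, 183 lost it and 3 called values turned direction. Values that were not called under either setting were not checked for direction. With the replicate number as a replicate block, 21 were higher and 31 lower with romidepsin in NRF2 cells, 20 and 29 in EV cells, 18 and 9 for NRF2 over EV with DMSO, 11 and 18 with romidepsin, and 1 and 9 for the interaction. No pairing by number was seen: 0 of 18 same-numbered pairs deviated together with a correlation over 0.1 (lowest -0.123, highest 0.0625). The deviations are from means of 3 libraries, so this cannot exclude shared cultures or days. Precision is limited by 3 libraries a group, and for Cct6b and Hspa1a with DMSO by few counts.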
